A study of Gallus gallus with 6 samples.

Results

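Axon guidance cues and their receptors were read from bulk RNA-seq of the regenerating chick basilar papilla, the auditory sensory epithelium of birds. The families were the class 3 to 7 semaphorins, the plexins and neuropilins, the Eph receptors and ephrins, the Slits and Robos, and the netrins with their UNC5 receptors. Members were chosen by gene symbol, with no threshold on measured values but with earlier results of these data known, and came to 59 of the 25619 gene rows (29 ligands and 30 receptors in 14 families). Of these, 48 had a mean of at least 1 FPKM (sequenced fragments scaled to gene length and library size) over the 6 libraries, which is the level called expressed and tested below. That is 81.4% of the members, against 46.3% of all rows.

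The tissue was explanted with the cochlear duct from chicks 1 day after hatching (post-hatch day 1), and both groups had 48 h of streptomycin (SM), an ototoxic aminoglycoside that destroys hair cells. Birds then form new hair cells from supporting cells. The labels mark every library as day 3. The SM plus BQ788 group (3 libraries) afterwards received BQ788, an inhibitor of the endothelin receptor EDNRB, and the SM control group (3 libraries) did not. The comparison asked how transcription of these genes differed with BQ788 after SM. No explants without SM were measured. The labels used here give neither the dose of BQ788 nor its exact times nor the number of ducts per library, and it is not stated that replicates are independent cultures or animals, so that each p-value reflects the spread among these 6 libraries alone, which may be technical.

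Guidance cues are secreted or membrane-bound proteins that steer growing axons and migrating cells by attraction, repulsion or adhesion. Class 3 semaphorins are secreted and act through neuropilins paired with plexins, while classes 4 to 7 are held at the cell surface and mostly bind plexins directly. Ephrins are surface ligands of the Eph receptor tyrosine kinases, Slits are secreted ligands of Robos, and netrins are laminin-related proteins read by DCC, neogenin and the UNC5 receptors. In the developing inner ear these families are known for guiding and sorting the processes of auditory and vestibular neurons on their way to hair cells, and several also act at epithelial boundaries.

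Recovered reads came to between 16369723 and 17070306 per SM plus BQ788 library and between 15438305 and 17375656 per SM control library. All 8 hair cell markers and all 8 supporting cell markers were expressed. The hair cell markers summed to between 335 and 350 FPKM with BQ788, against 376 to 403 FPKM in SM controls, and the supporting cell markers to 1352 to 1848 FPKM with BQ788, against 1587 to 1931 FPKM in SM controls. Neuronal genes summed to 51.1 to 52.9 FPKM with BQ788 and 61.8 to 68.8 FPKM in SM controls, cartilage genes to 77.0 to 101 FPKM with BQ788 and 165 to 205 FPKM in SM controls, and melanocyte genes to 4.31 to 6.81 FPKM with BQ788 and 13.3 to 13.6 FPKM in SM controls. These 3 sums, the hair cell sum and that of pericytes (16.3 to 21.5 FPKM with BQ788 and 23.9 to 24.3 FPKM in SM controls) were lower with BQ788 without overlap between groups. Not every gene in these lists fell. Of the 8 hair cell markers, MYO7A (-0.41) and POU4F3 (-0.33) had groups apart and lower. The other 6 overlapped: GFI1 (-0.64), LHX3 (-0.63), OTOF (-0.36), CALB2 (-0.30), ATOH1 (-0.07) and MYO6 (0.03). Of the 8, 7 lay below 0. An unadjusted limma p of 0.05 was passed by 6, all lower, as by 11.9% of all genes tested. The lowest limma adjusted p of the 8 was 0.175. The supporting cell sums overlapped, and GJB6 alone had 756, 1075 and 1219 FPKM of them with BQ788. Of the 8 supporting cell markers, TECTA (-0.62), FGFR3 (-0.39) and SOX9 (-0.35) had groups apart and lower. LFNG (0.27) had groups apart and higher. JAG1 (0.42), GJB6 (0.09), SOX2 (-0.07) and PROX1 (-0.02) overlapped, and only FGFR3 passed (limma adjusted p = 0.0415). Of the pericyte and smooth muscle genes, MYH11 (-0.61) and ACTA2 (-1.05) had groups apart and lower. CSPG4 (-0.49), RGS5 (-0.14) and PDGFRB (0.19) overlapped. Of the melanocyte genes, SLC45A2 (log2 fold change -1.46) and MLANA (-1.04) had groups apart and lower. MITF (0.11) had groups apart and higher, PMEL overlapped, and TYR, TYRP1 and DCT were under 1 FPKM. Of the cartilage genes, COL9A3 (-1.54) and COL9A1 (-1.11) had groups apart and lower. COL2A1 and MATN3 overlapped, and ACAN and MATN1 were under 1 FPKM. Sums of Schwann cell genes (124 to 175 FPKM with BQ788 and 149 to 167 FPKM in SM controls), blood and macrophage genes (31.5 to 56.1 FPKM with BQ788 and 36.4 to 59.0 FPKM in SM controls) and endothelial genes (27.4 to 35.96 FPKM with BQ788 and 35.9 to 39.2 FPKM in SM controls) overlapped. Fibroblast genes summed to 306, 120 and 159 FPKM in SM plus BQ788 replicates 1 to 3, against 269, 241 and 210 FPKM in SM controls, so replicate 1 with BQ788 stood apart from the other libraries of its group. No marker was at 0 in all 6 libraries, and in bulk tissue fewer cells of a type cannot be told apart from less RNA per cell.

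A netrin-4-like gene, NTN4L, was the most abundant member in every library and fell with BQ788, the 1 member to pass the test. With the settings reported, the members as a whole were not called more often than other genes: 1 of 48 (2.08%) passed a limma adjusted p of 0.05, against 2.99% of all 11857 genes tested. That 1 was lower, where 2.24% of all genes tested were lower and 0.751% higher. The comparison rests on 1 call and went the other way in some settings. Limma voom called 2 of 48, against 3.1% of all genes. With the replicate number as a block, limma called 5 of 48, against 6.32%. None of the others reached a log2 fold change of 0.5 in either direction on the log2(FPKM + 1) scale, which understates changes of low genes. In limma voom on recovered reads, SEMA3G (-0.67), EPHA3 (-0.67), UNC5A (-0.57), SEMA6B (-0.54) and ROBO2 (-0.51) fell by more than 0.5. NTN1 (0.58), with an SM control mean under 1 FPKM, rose by more than 0.5 there, and of these genes only SEMA6B passed. The median over the members on the log2(FPKM + 1) scale was -0.07, against 0.02 over all genes tested. Without SM plus BQ788 replicate 1 the members past the threshold were 10 of 48, a larger share than the 11.1% of all genes tested that passed. Beside NTN4L these were SEMA3B, SEMA3D, SEMA6B, EPHA3, EFNB1, ROBO1, ROBO2 and UNC5A, lower with BQ788, and PLXNB2, higher (limma adjusted p = 0.0239 to 0.0467). The members past the threshold were 0 without SM plus BQ788 replicate 3, where 0.177% of all genes passed, and 0 without any 1 of the other 4 libraries, where 0.00843% passed.

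Netrins are secreted, and netrin-4 in mammals is known as a basement membrane protein that binds laminin. NTN4L lies on chromosome 12 (GRCg7b, 10899840 to 10943199, plus strand), and it had 48.7, 62.7 and 68.9 FPKM with BQ788, against 129, 111 and 115 FPKM in SM controls. The highest library with BQ788 thus lay well below the lowest control. The means were 60.1 ± 10.3 FPKM with BQ788 and 118 ± 9.74 FPKM in SM controls (SD, n = 3 each), a ratio of 0.508. The log2 fold change was -0.98 (SE 0.13, 95% interval -1.30 to -0.66, limma adjusted p = 0.0294). NTN4L alone made up 10.7% ± 1.24 of the summed FPKM of all 59 members with BQ788 and 18.3% ± 1.36 in SM controls. The call was lost (limma adjusted p = 0.0546 to 0.135) without SM plus BQ788 replicate 2 or 3 or any 1 SM control, with log2 fold changes of -1.08 to -0.91, and held without SM plus BQ788 replicate 1 (-0.84, adjusted p = 0.0164, with a range of 0.0164 to 0.135 over all alternatives). Cartilage, melanocyte, neuronal, hair cell and pericyte marker sums were lower in the same 3 libraries, and their part in this result was not tested.

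The other netrins were far lower. NTN4 itself (chromosome 1) averaged 4.27 ± 0.15 FPKM with BQ788 and 3.86 ± 0.74 FPKM in SM controls. NTN1, the classical attractant of commissural axons, had 0.912, 1.48 and 2.15 FPKM with BQ788, against 1.01, 0.825 and 0.978 FPKM in SM controls. This was the largest positive log2 fold change of any member tested (0.35, SE 0.19, limma adjusted p = 0.315), but the groups overlapped and 1 library with BQ788 lay within the control range. NTN1 averaged 1.51 FPKM with BQ788 and 0.937 FPKM in SM controls. It thus reached the limit of 1 FPKM only through the group where it was higher, so its rank among rises is not independent of the filter. A row named NTN3, which the deposited table describes as netrin 1, was at 0.0998 FPKM in SM plus BQ788 replicate 1 and lower in every other library. The netrin family summed to 65.9 ± 11.1 FPKM with BQ788 and 123 ± 9.58 FPKM in SM controls. Of these sums NTN4L alone made up 60.1 FPKM with BQ788 and 118 FPKM in SM controls.

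The UNC5 receptors, which mediate repulsion by netrins, were expressed at low levels and went both ways. UNC5B, which had the highest mean over all 6 libraries but lay below UNC5A in each SM control, had 4.49, 3.85 and 4.91 FPKM with BQ788, against 3.56, 3.39 and 3.33 FPKM in SM controls. UNC5A had 3.67, 2.35 and 2.34 FPKM with BQ788, against 3.69, 4.17 and 4.46 FPKM in SM controls. The groups did not overlap in either gene: UNC5B lay higher with BQ788 (0.29, SE 0.09, limma adjusted p = 0.142) and UNC5A lower (-0.45, SE 0.15, limma adjusted p = 0.151), and neither passed. UNC5A replicate 1 with BQ788 almost reached the controls, and without that library its log2 fold change was -0.61 (limma adjusted p = 0.0262, with a range of 0.0262 to 0.374 over all alternatives). UNC5C averaged 1.66 FPKM with BQ788 and 1.78 FPKM in SM controls, and UNC5D was below the expression limit, at 0.168 FPKM with BQ788 and 0.143 FPKM in SM controls.

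**Figure D1:**
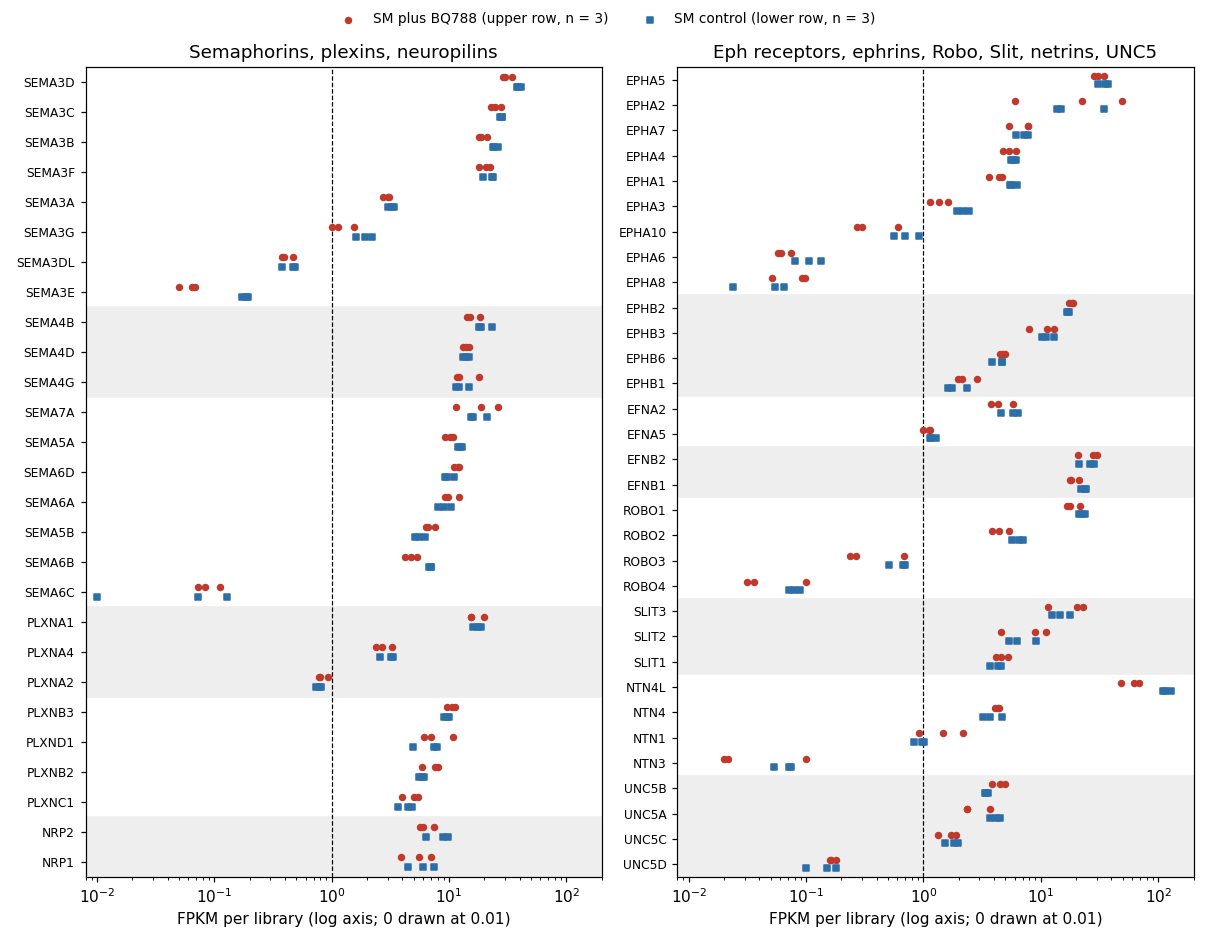
Level of each of the 59 members in each library, in FPKM on a log axis, with the SM plus BQ788 libraries (red circles) above the SM controls (blue squares) on each line and shading that alternates between families. The dashed line marks the expression limit of 1 FPKM, which 11 members stayed below. NTN4L is the highest member within each library, with its groups apart, and most other members have groups that overlap or lie side by side. The lowest point of NTN4L (48.67 FPKM, SM plus BQ788 replicate 1) lies just left of the highest of EPHA2 (48.74 FPKM, SM plus BQ788 replicate 3).

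Mean levels over the 6 libraries ranged between 0.0568 FPKM for NTN3 and 89.2 FPKM for NTN4L, and 21 members had a mean of at least 10 FPKM. The 11 members below the limit were SEMA3DL, SEMA3E, SEMA6C, PLXNA2, EPHA6, EPHA8, EPHA10, ROBO3, ROBO4, NTN3 and UNC5D. All but SEMA6C, which was at 0 in SM control replicate 3, were above 0 in every library. Their depth differed widely, and PLXNA2 had 138 to 169 reads per library. SEMA3E, a ligand that in the mouse binds plexin D1 without a neuropilin, had 6, 6 and 4 reads with BQ788, against 17, 14 and 16 reads in SM controls. The groups of SEMA3E and of EPHA6 did not overlap, both lower with BQ788, and without a filter on low values neither passed (limma adjusted p = 0.0566 and 0.319).

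Of the secreted class 3 semaphorins, SEMA3D, SEMA3C, SEMA3B and SEMA3F were well expressed, and all 6 tested had log2 fold changes below 0, between -0.39 and -0.09. None passed in limma or limma voom, and 3 passed an unadjusted p of 0.05, which 22.7% of all genes tested passed. SEMA3D (chromosome 1, 8899181 to 9041982) was the highest, with 34.5, 29.0 and 30.0 FPKM with BQ788, against 41.0, 38.6 and 38.2 FPKM in SM controls. SEMA3B (chromosome 12) had 21.1, 18.02 and 18.8 FPKM with BQ788, against 23.7, 26.3 and 24.2 FPKM in SM controls. The groups were apart in both, with log2 fold changes of -0.33 (SE 0.08, limma adjusted p = 0.0832) for SEMA3D and -0.34 (SE 0.08, adjusted p = 0.0729) for SEMA3B.

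SEMA3G, with a mean of 1.22 ± 0.29 FPKM with BQ788 and 1.92 ± 0.30 FPKM in SM controls, also had groups that did not overlap. SEMA3C, SEMA3F and SEMA3A, which with SEMA3D include the best known axon repellents of the class, had overlapping groups. With BQ788 their means were 25.2 FPKM for SEMA3C, 20.4 FPKM for SEMA3F and 2.96 FPKM for SEMA3A, and in SM controls 27.9 FPKM for SEMA3C, 22.1 FPKM for SEMA3F and 3.23 FPKM for SEMA3A. In order of level SEMA3D stood apart from SEMA3C, whereas the ranges of SEMA3C, SEMA3B and SEMA3F ran into each other, and SEMA3A, SEMA3G, SEMA3DL and SEMA3E each stood apart below. Summed over the class, the level was 101 ± 7.30 FPKM with BQ788 and 120 ± 3.71 FPKM in SM controls, with no overlap between libraries. The direction of each of the 6 was the same in every setting that tested it, including with any 1 library left out, and SEMA3A and SEMA3G were not tested at the filter of 5 FPKM.

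Some of these genes lie close to each other. SEMA3G, SEMA3F and SEMA3B are consecutive members on chromosome 12, with gaps of 45.4 kb and 30.9 kb between them. SEMA3D, SEMA3A and SEMA3E are consecutive members on chromosome 1, with gaps of 245 kb and 134 kb. Only members were put in order, so other genes may lie in the gaps. A row named LOC101747452 (mean 0.169 FPKM) overlaps SEMA3G, SEMA3F and SEMA3B. The differences within each cluster were unequal: SEMA3F (-0.11) lies between SEMA3G (-0.39) and SEMA3B (-0.34), and its groups overlapped. NTN4L lies on chromosome 12 between PLXNA1 (729 kb away) and PLXNB3 (515 kb away), neither of which passed.

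The membrane-bound semaphorins were each expressed except SEMA6C, and their differences had no common sign. SEMA6B, a class 6 semaphorin that binds class A plexins, came closest to the threshold of all members after NTN4L. It had 5.33, 4.18 and 4.74 FPKM with BQ788, against 7.02, 6.69 and 6.98 FPKM in SM controls, with groups well apart (log2 fold change -0.46, SE 0.09, limma adjusted p = 0.0524). It passed in limma voom on the recovered reads (adjusted p = 0.0467, with a range of 0.0242 to 0.178 over all alternatives), which called 2 members, NTN4L and SEMA6B, and 3.1% of all genes.

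SEMA5A, a class 5 semaphorin with thrombospondin repeats that can attract or repel axons, had 9.23, 10.7 and 10.3 FPKM with BQ788, against 12.4, 11.99 and 12.9 FPKM in SM controls (-0.28, SE 0.07, limma adjusted p = 0.0950). Its relative SEMA5B lay the other way, at 6.85 ± 0.60 FPKM with BQ788 and 5.64 ± 0.56 FPKM in SM controls, as did SEMA6D, at 11.7 ± 0.53 FPKM with BQ788 and 9.95 ± 0.99 FPKM in SM controls. All 3 genes had groups that were apart, and none passed (adjusted p = 0.199 for SEMA5B and 0.197 for SEMA6D). SEMA6A averaged 10.4 FPKM with BQ788 and 9.17 FPKM in SM controls, with overlap.

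SEMA4B led class 4, with 14.2, 15.1 and 18.2 FPKM with BQ788, against 17.9, 18.8 and 23.4 FPKM in SM controls (-0.32, SE 0.13, limma adjusted p = 0.210). Only the highest library with BQ788 reached into the range of the controls. SEMA4D, a ligand of plexin B1 in mammals, was nearly equal in both groups at 13.9 ± 0.90 FPKM with BQ788 and 13.9 ± 0.83 FPKM in SM controls, with a 95% interval of the log2 fold change from -0.18 to 0.18. SEMA4G averaged 13.9 FPKM with BQ788 and 12.8 FPKM in SM controls. The glycolipid-anchored SEMA7A, which in mammals also binds integrins, had 11.4, 18.7 and 26.2 FPKM with BQ788, against 15.2, 15.97 and 20.9 FPKM in SM controls (0.05, SE 0.28, limma adjusted p = 0.942), a spread within the BQ788 group that covered all the controls. SEMA4D, SEMA4G, SEMA6D and SEMA6A each overlap a gene of at least 1 FPKM on the opposite strand and SEMA7A overlaps UBL7 on its own strand. How the counting treated strand is not given in the sources used here, so reads of such pairs may be shared.

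**Figure D2:**
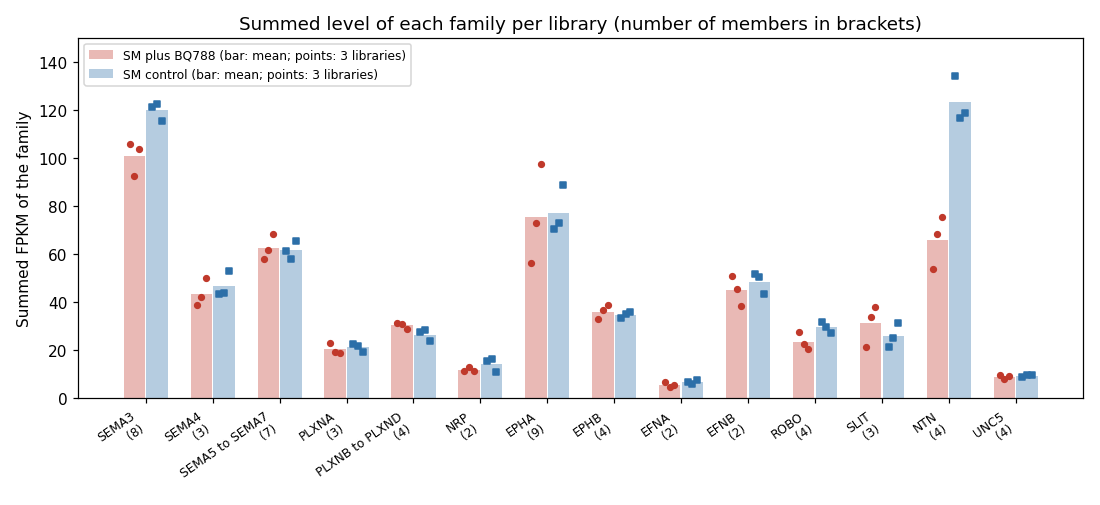
Summed FPKM of the members of each of the 14 families, with bars for the mean of 3 libraries and points for single libraries, SM plus BQ788 (red) left of SM control (blue). The netrin sums, with means of 65.9 FPKM with BQ788 and 123 FPKM in SM controls, lie furthest apart, those of class 3 semaphorins, at 101 FPKM with BQ788 and 120 FPKM in SM controls, do not overlap either, and those of PLXNB to PLXND, at 30.3 FPKM with BQ788 and 26.5 FPKM in SM controls, do not overlap in the other direction. Of the netrin sums NTN4L alone made up 60.1 FPKM with BQ788 and 118 FPKM in SM controls. The log2 fold changes of NTN4 (0.13) and NTN1 (0.35) lay above 0, with overlapping groups. The EPHA sums spread most within the BQ788 group.

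Plexins transmit semaphorin signals through an intracellular GTPase-activating domain. PLXNA1 was the most abundant at 19.8, 15.4 and 15.4 FPKM with BQ788, against 18.6, 17.6 and 16.1 FPKM in SM controls (-0.05, SE 0.11, limma adjusted p = 0.830), with the controls inside the range of the BQ788 libraries. PLXNA4 averaged 2.77 FPKM with BQ788 and 3.05 FPKM in SM controls, and PLXNA2 was just below the limit at 0.837 FPKM with BQ788 and 0.774 FPKM in SM controls. PLXNB3 had 9.58, 11.2 and 10.5 FPKM with BQ788, against 9.67, 10.1 and 9.07 FPKM in SM controls (0.11, SE 0.08, limma adjusted p = 0.468), again with overlap.

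The log2 fold changes of PLXNB2, PLXNB3, PLXNC1 and PLXND1 all lay above 0 (0.11 to 0.24), the last of them below 0 without SM plus BQ788 replicate 1. PLXNB2 was at 7.17 ± 1.19 FPKM with BQ788 and 5.87 ± 0.29 FPKM in SM controls, and without that library it reached 0.36 (limma adjusted p = 0.0412, with a range of 0.0412 to 0.551 over all alternatives). PLXNC1 averaged 4.79 FPKM with BQ788 and 4.33 FPKM in SM controls, and PLXND1 7.95 FPKM with BQ788 and 6.75 FPKM in SM controls. The groups overlapped in every tested plexin, and 0 of 6 passed an unadjusted limma p of 0.05, against 22.7% of all genes tested.

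Neuropilins, the binding partners of class 3 semaphorins and also of vascular endothelial growth factors, were both expressed. NRP2 had 7.45, 6.01 and 5.63 FPKM with BQ788, against 9.71, 8.90 and 6.42 FPKM in SM controls (-0.33, SE 0.16, limma adjusted p = 0.274). The lowest control lay inside the BQ788 range. NRP1 averaged 5.51 ± 1.59 FPKM with BQ788 and 5.98 ± 1.49 FPKM in SM controls, a difference far smaller than its spread.

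Among Eph receptors, EPHA5 had the highest mean of class A but lay below EPHA2 in replicate 3 of both groups, with 34.5, 30.8 and 28.4 FPKM with BQ788, against 35.04, 37.6 and 31.0 FPKM in SM controls (-0.14, SE 0.10, limma adjusted p = 0.449). The groups overlapped. EPHA3 had 1.62, 1.36 and 1.14 FPKM with BQ788, against 2.42, 2.16 and 1.94 FPKM in SM controls. EPHA1 had 3.61, 4.68 and 4.40 FPKM with BQ788, against 5.61, 5.43 and 6.29 FPKM in SM controls. The groups of EPHA3 (-0.42, SE 0.11, limma adjusted p = 0.0983) and EPHA1 (-0.38, SE 0.10, adjusted p = 0.103) did not overlap, and neither passed.

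EPHA4, a receptor for ephrins of both classes, averaged 5.43 FPKM with BQ788 and 5.82 FPKM in SM controls, and EPHA7 6.96 FPKM with BQ788 and 7.07 FPKM in SM controls. All 6 tested EPHA genes had log2 fold changes below 0 (-0.42 to -0.00), but EPHA2 and EPHA7 lay above 0 without SM plus BQ788 replicate 1 and without SM control replicate 3. EPHA6, EPHA8 and EPHA10 were below the expression limit. EPHA10 averaged 0.393 FPKM with BQ788 and 0.724 FPKM in SM controls, with overlap.

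EPHA2, an Eph receptor common in epithelia, varied more between libraries than any other member. It had 6.01, 22.4 and 48.7 FPKM with BQ788, where the highest was 8.11 times the lowest, against 13.6, 14.96 and 34.2 FPKM in SM controls, where it was 2.51 times the lowest. Its log2 fold change was -0.00 with a 95% interval from -1.72 to 1.71, so a difference of the size of that of NTN4L would not have been detectable. The next widest spreads were those of SLIT2, SEMA7A, SLIT3, PLXND1 and NRP1. EPHA2 was 1 of 8 members that were highest in replicate 3 and lowest in replicate 1 of both groups, with SEMA4B, SEMA4G, SEMA7A, PLXNB2, EPHB3, SLIT2 and SLIT3. The opposite order was also found in 8 members (SEMA6D, PLXNA1, PLXND1, NRP2, EPHA3, EFNB2, ROBO1 and ROBO2). Each is 16.7% of the members tested, against 10.8% and 9.40% of all genes tested, and the titles do not say that a shared number marks a shared culture. The fibroblast marker sum was highest in replicate 1 of both groups. POSTN, a marker in that list, was instead lowest in replicate 1 of both groups. It had 5.48, 6.29 and 6.76 FPKM with BQ788, against 29.9, 32.8 and 32.7 FPKM in SM controls (limma adjusted p = 0.000886). The part of the fibroblast markers in this spread was not tested.

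**Figure D3:**
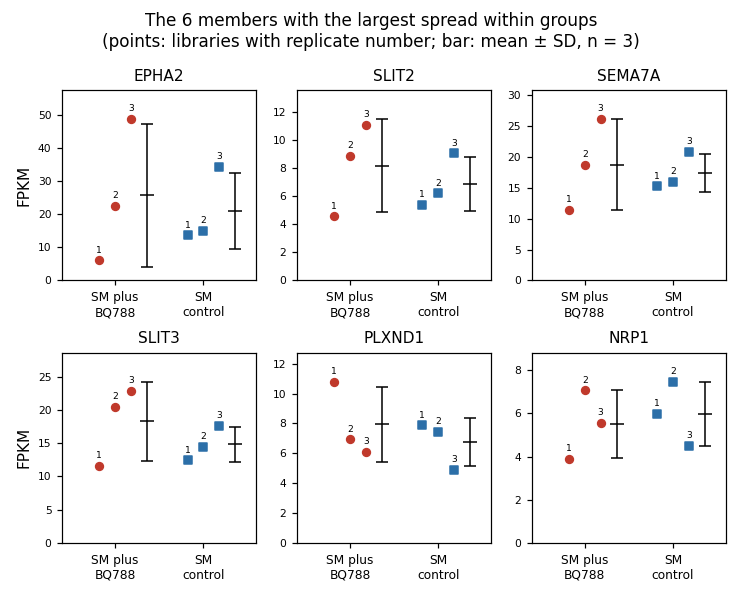
FPKM in each library for the 6 members with the largest spread within groups, SM plus BQ788 (red) left of SM control (blue), with replicate numbers at the points and the mean ± SD (n = 3) beside them. EPHA2 covers 6.01 to 48.7 FPKM with BQ788 alone, and in EPHA2, SLIT2, SEMA7A and SLIT3 replicate 3 is the highest library of each group.

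Of the class B Eph receptors, EPHB2 was the highest and had 17.4, 18.4 and 19.0 FPKM with BQ788, against 16.96, 17.3 and 16.8 FPKM in SM controls. The groups did not overlap, by a small margin, and the difference did not pass (0.09, SE 0.06, limma adjusted p = 0.386). EPHB3 averaged 10.7 FPKM with BQ788 and 11.5 FPKM in SM controls, and EPHB1 2.34 FPKM with BQ788 and 1.91 FPKM in SM controls. The row named EPHB6, which the deposited table describes as a variant of EPHA7, averaged 4.73 FPKM with BQ788 and 4.41 FPKM in SM controls.

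Only 4 ephrins were among the members. The transmembrane class B ligands EFNB2 and EFNB1 were several times more abundant than the lipid-anchored class A ligands EFNA2 and EFNA5. EFNA2 had 339 reads over the 6 libraries, the fewest of any member tested. EFNB2 had 30.0, 27.6 and 20.8 FPKM with BQ788, against 28.2, 26.2 and 21.3 FPKM in SM controls (0.04, SE 0.16, limma adjusted p = 0.903), with nearly the same range in each group. EFNB1 had 21.1, 18.1 and 17.6 FPKM with BQ788, against 23.6, 24.1 and 22.0 FPKM in SM controls (-0.29, SE 0.08, limma adjusted p = 0.117), with groups apart. EFNA2 had 5.76, 3.73 and 4.36 FPKM with BQ788, against 5.85, 4.598 and 6.34 FPKM in SM controls (-0.24, SE 0.16, limma adjusted p = 0.425), with overlap. EFNA5, which averaged 1.09 FPKM with BQ788 and 1.19 FPKM in SM controls, had groups that only just failed to overlap (adjusted p = 0.687).

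Robos and Slits, a receptor and ligand pair that repels axons at the midline, differed in sign. ROBO1 had 21.5, 17.8 and 16.6 FPKM with BQ788, against 23.9, 22.4 and 21.1 FPKM in SM controls (-0.26, SE 0.10, limma adjusted p = 0.202), and its highest BQ788 library just passed the lowest control. ROBO2 had 5.31, 4.41 and 3.82 FPKM with BQ788, against 7.06, 6.51 and 5.71 FPKM in SM controls, with groups apart (-0.43, SE 0.12, limma adjusted p = 0.108). The genes lie 282 kb apart on chromosome 1. ROBO3 and ROBO4, the last known from endothelium, were below the limit, and their annotated positions on chromosome 24 overlap. Of 8 endothelial markers, EGFL7, PECAM1 and CLDN5 were expressed and CDH5, KDR, TEK, TIE1 and VWF had means under 1 FPKM.

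SLIT3 led the Slits, with 11.6, 20.5 and 22.9 FPKM with BQ788, against 12.4, 14.5 and 17.6 FPKM in SM controls (0.25, SE 0.25, limma adjusted p = 0.609). SLIT2 averaged 8.21 ± 3.33 FPKM with BQ788 and 6.91 ± 1.93 FPKM in SM controls, and SLIT1 4.67 ± 0.56 FPKM with BQ788 and 4.21 ± 0.46 FPKM in SM controls. All 3 log2 fold changes lay above 0, SLIT2 below 0 without SM plus BQ788 replicate 3, and the groups overlapped in each.

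**Figure D4:**
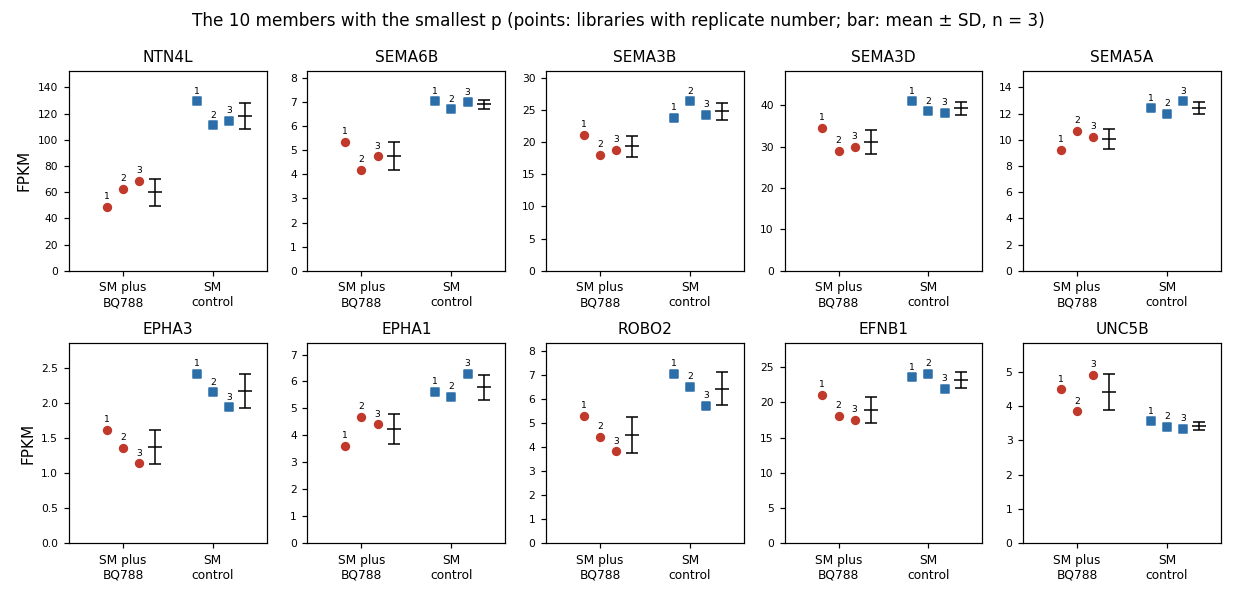
FPKM in each library for the 10 members with the smallest p, SM plus BQ788 (red) left of SM control (blue), with replicate numbers at the points and the mean ± SD (n = 3) beside them. In all 10 the groups do not overlap, 9 lie lower and UNC5B lies higher with BQ788, and NTN4L, with means of 60.1 FPKM with BQ788 and 118 FPKM in SM controls, is the 1 member past an adjusted p of 0.05.

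Across the families, 16 of the 48 tested members (33.3%) had groups that did not overlap, against 29.3% of all genes tested. Of these, 12 were lower with BQ788 (25.0% of the members, against 14.1% of all genes) and 4 were higher (8.33%, against 15.2%). The 12 were SEMA3B, SEMA3D, SEMA3G, SEMA5A, SEMA6B, EPHA1, EPHA3, EFNA5, EFNB1, ROBO2, NTN4L and UNC5A, and the 4 were SEMA5B, SEMA6D, EPHB2 and UNC5B. An unadjusted limma p of 0.05 was passed by 16 members (33.3%, against 22.7% of all genes tested), 13 lower (11.9% of all genes tested) and 3 higher (10.8% of all genes). Log2 fold changes below 0 were found in 28 of 48 members (58.3%), against 46.5% of all genes. Among ligands 13 of 25 lay below 0, and among receptors 15 of 23, a difference that was not tested. The summed level of all 59 members was 562 ± 39.1 FPKM with BQ788 and 646 ± 8.97 FPKM in SM controls, and that of the 58 other than NTN4L was 502 ± 30.0 FPKM with BQ788 and 527 ± 8.001 FPKM in SM controls.

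**Figure D5:**
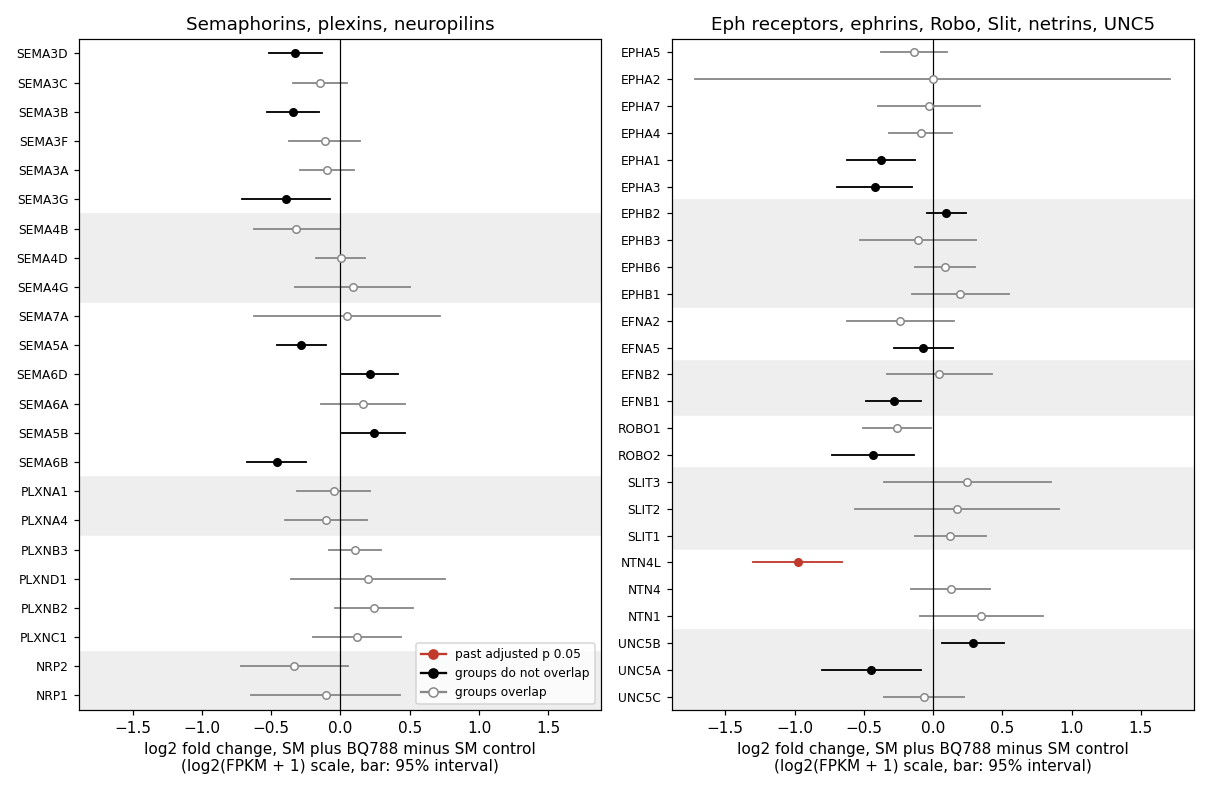
Log2 fold change of the 48 tested members, SM plus BQ788 minus SM control on the log2(FPKM + 1) scale, with 95% intervals. NTN4L (red) at -0.98 is the 1 member past an adjusted p of 0.05, filled black points mark the other 15 members whose groups do not overlap, and EPHA2 has the widest interval, from -1.72 to 1.71.

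The pathways around these families were read from 5 lists of other guidance genes and effectors. Of 142 tested genes 5 passed (3.52%, against 2.99% of all genes tested), 4 lower and 1 higher, with a median log2 fold change of -0.00. Among 27 other genes of the Slit and Robo pathway, the heparan sulfate proteoglycan gene SDC3 fell to 25.6 ± 1.49 FPKM with BQ788, against 33.8 ± 0.93 FPKM in SM controls (-0.39, SE 0.06, limma adjusted p = 0.0384). Among 25 genes of the netrin pathway and other cues and receptors, RTN4R, the Nogo receptor, fell to 5.77 ± 0.49 FPKM with BQ788, against 8.12 ± 0.30 FPKM in SM controls (-0.43, adjusted p = 0.0439). MCAM, an adhesion molecule of the immunoglobulin superfamily, fell to 72.9 ± 0.98 FPKM with BQ788, against 91.6 ± 5.25 FPKM in SM controls (-0.32, adjusted p = 0.0468).

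Among 35 shared cytoskeletal effectors, the small GTPase gene RHOB fell by 0.45 on the log2 scale (limma adjusted p = 0.0415) and PPP3CA, a catalytic subunit of calcineurin, rose to 9.07 ± 0.39 FPKM with BQ788, against 6.43 ± 0.34 FPKM in SM controls (0.44, SE 0.07, adjusted p = 0.0361). None of 27 other genes of the semaphorin and plexin pathway and none of 29 of the ephrin and Eph pathway passed in limma or limma voom, with 3 and 1 at an unadjusted limma p of 0.05. The 5 calls fell to 0 without any 1 library other than SM plus BQ788 replicate 1 and came to 11 of 142 without that library, where 11.1% of all genes passed. Of the neuronal markers, GAP43, a growth cone protein gene, fell to 2.27, 1.74 and 1.85 FPKM with BQ788, against 6.55, 5.11 and 4.92 FPKM in SM controls (limma adjusted p = 0.0207). NEFL and NEFM, neurofilament genes, also fell (limma adjusted p = 0.0415 and 0.0283). SNAP25 and STMN2 had means under 1 FPKM and were not tested. The other 3 tested neuronal markers did not pass, with log2 fold changes of 0.02 for TUBB3, -0.05 for PRPH and -0.04 for ELAVL4 (adjusted p = 0.761 to 0.898).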

How the data were processed

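Total RNA (400 ng per library) of basilar papillae lifted off with thermolysin was sequenced with a NEBNext Ultra II kit, per the labels' protocols. The authors deposited FPKM values per gene in 1 table. Fastp and GRCg7b stand in the submitters' processing notes. The aligner and counter were not given in the sources. Of 25619 rows 25616 matched a RefSeq annotation. Multiplied by gene length, every value was a whole multiple of 1 read (largest distance 2.79e-05 of a read), so reads were recovered. The library size implied by the FPKM values was not the plain total of recovered reads. It was between 0.9484 (SM plus BQ788 replicate 3) and 1.0611 (SM plus BQ788 replicate 1) times that total, and how it was set was not given in the sources. With 3 reads as floor, a gene of 1 kb reaches 0.169 to 0.193 FPKM, which covers counting error only.

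Values were tested as log2(FPKM + 1) in limma 3.58.1 (R 4.3.3), a linear model of group with eBayes and a trend, two-sided, over all 11857 genes whose mean was 1 FPKM or more, with Benjamini-Hochberg adjustment at 0.05. Fold changes on this scale understate those of low genes. Sums, counts and levels were not tested. An exact permutation of 3 against 3 libraries cannot go below p = 0.1 and was not used. The procedure was also run on simulated data with independent noise for each gene, which cannot show its error rate where libraries vary together across genes.

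Values in every library are given for members past the threshold, the 10 smallest p, the most abundant member of each of 14 families and the 3 largest rises and falls. Library values of EPHA2, GAP43, POSTN and the fibroblast marker sum, reads of SEMA3E and the SD of some other members were added after values were seen. From the pathway lists the genes past the threshold are named. Members and lists were chosen with earlier results of these data known. Alternatives were a pseudocount of 0.1 or 0.5, a filter at 5 FPKM or none, other scalings (median of ratios, quantile, plain totals), removal of a gene length trend, eBayes without trend or robust, no chromosomes W and Z, limma voom on recovered reads, the replicate block and leaving out each library.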

Additional observations from a re-analysis of the deposited data

How the results depend on the processing

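The number of members past the threshold, 1 with the settings reported, was 0 with no filter on low values, 2 with the gene length trend removed, 2 in limma voom and between 0 and 10 with 1 library left out. The lower members, 1 as reported, were 0, 2 and 2 in the first 3 of these and between 0 and 9 with 1 library left out, and the higher ones, 0 as reported, between 0 and 1. NTN4L had an adjusted p of 0.0568 with no filter, where more genes were tested. The other pathway genes past the threshold, 5 as reported, were 0 with no filter, 2 with plain totals, 3 without the eBayes trend and between 0 and 11 with 1 library left out. For the changes by library the cause was not tested.

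Members with a log2 fold change below 0 numbered 21 of the 34 tested at a mean of at least 5 FPKM, 27 of 45 without chromosomes W and Z and 25 to 31 of 48 otherwise. Of the 48 members 36 kept their sign in every setting that tested them. The other 12 changed sign with 1 library left out, and SEMA4D also turned to -0.0029 with quantile normalization, -0.0090 with plain totals and -0.0292 with the length trend removed. With 1 library left out, log2 fold changes ranged from -0.0428 to 0.0440 for SEMA4D, -0.0964 to 0.190 for SEMA4G, -0.217 to 0.348 for SEMA7A, -0.164 to 0.0073 for PLXNA1 and -0.0204 to 0.345 for PLXND1. They ranged from -0.277 to 0.0829 for NRP1, -0.656 to 0.757 for EPHA2, -0.116 to 0.129 for EPHA7, -0.249 to 0.0771 for EPHB3, -0.0689 to 0.194 for EFNB2, -0.0614 to 0.498 for SLIT2 and -0.137 to 0.0213 for UNC5C. None of these 12 passed the threshold under any setting.

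Replicates 1 to 3 of each group share numbers. Same-numbered libraries correlated in their deviations from the group means at 0.5, 0.074 and 0.569, and SM plus BQ788 replicate 2 correlated best with SM control replicate 3 (0.127). SM plus BQ788 replicate 1 with SM control replicate 3 gave -0.53, and SM plus BQ788 replicate 3 with SM control replicate 1 gave -0.478. The deviations within a group sum to 0, so these values are not independent and cannot decide whether the numbers pair the samples. The titles do not say so, and the main fit had no replicate block. With the replicate block, 5 members passed, all 5 lower (NTN4L, SEMA3D, SEMA4B, SEMA6B and ROBO2), where 6.32% of all genes did. The tested members had 339 to 36550 reads each over 6 libraries. Among those below the expression limit, SEMA3E, SEMA6C and ROBO4 had at most 17 in any library, which limits what can be detected there.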
